A study of Mus musculus with 6 samples.

Results

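The genes described here are the TALE homeobox cofactors of Hox proteins, taken by name from the count lists: Meis1, Meis2 and Meis3 (MEIS class), Pknox1 and Pknox2 (PREP class), Pbx2, Pbx3 and Pbx4 (PBX class) and Tgif1 (TGIF class). All 9 were found among the 24393 genes listed in each library, and 8 of the 9 passed the filter on low counts and could be tested. KH2 cells, a mouse embryonic stem cell line (strain label C57/BL/6) made to carry doxycycline-inducible genes, were differentiated towards definitive endoderm on M15 feeder cells, which derive from mesoderm. Both groups were given the same protocol in the labels: doxycycline at 1.25 µg/ml from day 4, sorting of cells positive for CXCR4 and E-cadherin on day 6, and a further day of culture with doxycycline before RNA isolation. The 3 HOXA13 samples carried a FLAG-tagged human HOXA13 gene with its intron, placed at the inducible locus and picked as hygromycin-resistant clones, and the 3 CONTROL samples are labelled only by their genotype, CONTROL. The study calls the samples biological replicates. The labels do not say whether they came from separate clones or differentiations, so the tests measure the spread between these samples.

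TALE proteins carry a homeodomain with a short loop extension. PBX and MEIS or PREP proteins bind each other, which keeps PBX in the nucleus, and together they bind DNA beside Hox proteins and sharpen which sites a Hox protein takes. TGIF proteins are TALE repressors that bind SMADs and take part in TGF-β and Nodal signalling, and they recognise nearly the same DNA letters as MEIS and PREP. The comparison asked whether the RNA of these cofactors differed in the sorted cells when HOXA13 was expressed.

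The libraries held between 12279884 and 17331638 counts, and 3 counts, taken as the floor, were worth 0.176 to 0.240 CPM (the count of a gene scaled by the normalised size of its library). This floor covers counting error only. The row ENSG00000106031, a human identifier that the files do not pair with a symbol, held 0 counts in each CONTROL library and 2497, 7666 and 6572 counts in HOXA13 replicates 1, 2 and 3, in keeping with the labels. Values listed for a group below run from replicate 1 to replicate 3. Mouse Hoxa13 itself had between 0 and 10 counts. CONTROL replicate 2 stood apart: across the 13600 tested genes its Spearman correlation was 0.908 and 0.931 with the other CONTROL replicates and 0.951 to 0.961 with the HOXA13 replicates. The 12 markers listed for definitive endoderm differed in level and summed to between 81.1 and 192 CPM. Eomes was between 24.4 and 111 CPM, Gata4 between 13.1 and 31.9 CPM and Gata6 between 5.69 and 35.8 CPM. Sox17 was between 0.975 and 4.84 CPM, Foxa2 between 1.76 and 5.04 CPM, and Cer1 was at 0 counts in all 6 libraries. Of the sort markers, Cxcr4 RNA was between 2.25 and 11.3 CPM. Cdh1, the E-cadherin gene, ran from 192 CPM in CONTROL replicate 1 to 1893 CPM in HOXA13 replicate 3. Results that rest on CONTROL replicate 2 are given with and without it.

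No TALE member passed the threshold. With edgeR's quasi-likelihood test, a count model with its spread estimated across genes, and a threshold of 0.05 on p-values adjusted over all tested genes by Benjamini-Hochberg, 0 of the 8 tested members were called, where 0.309% of all tested genes were called (0.265% higher and 0.0441% lower in HOXA13). At an unadjusted p under 0.05 there was 1 member, Tgif1, against 14.1% of all tested genes. The median log2 fold change of the 8 (HOXA13 over CONTROL) was -0.10, with 3 higher and 5 lower, and that of all tested genes was -0.01. DESeq2, the study's tool, called 1 of 9, Pknox2, where it called 5.05% of genes, and limma voom with sample quality weights called 0 of 8, where it called 15.4%. Without CONTROL replicate 2, edgeR called 2 of 9, Meis2 and Pknox2, both lower in HOXA13, where it called 14.2% of genes. Pknox2 entered that test and the DESeq2 test only through CONTROL replicates 1 and 3, where it was high. Neither of its calls is support for a difference.

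**Figure D1:**
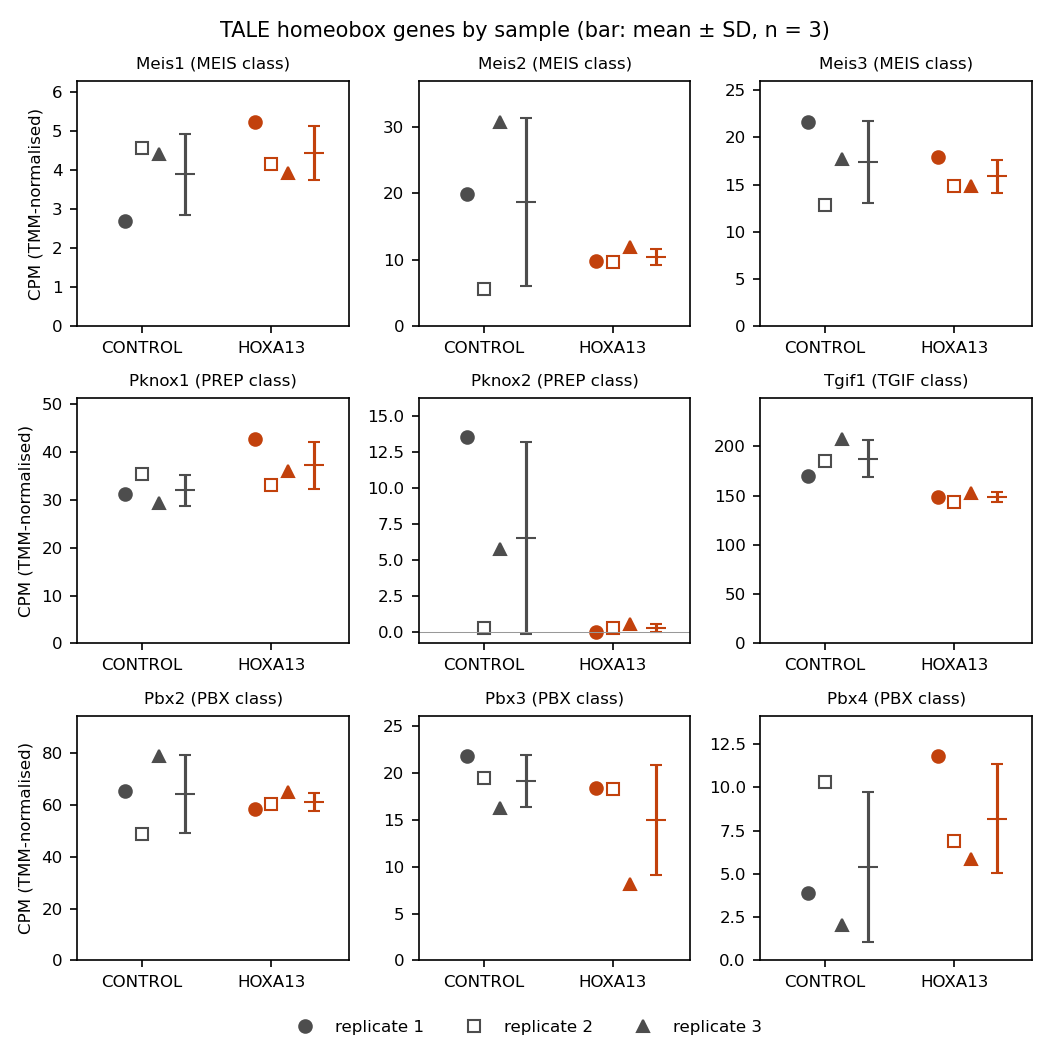
Normalised CPM (vertical axis, linear) of the 9 TALE genes in each CONTROL and HOXA13 replicate, with the mean and SD of each group (n = 3) beside the points. Only Tgif1 had all CONTROL values above all HOXA13 values. CONTROL replicate 2 (open squares) lay farthest from the other CONTROL replicates for Meis2 and Pbx4, and was the lowest of them for Pknox2.

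The members differed widely in level. Per kilobase of merged exon and averaged over the 6 samples, the order was Tgif1 at 49.9 ± 7.32, Pbx2 at 17.3 ± 2.73, Meis3 at 9.15 ± 1.68, Pknox1 at 8.23 ± 1.12, Pbx3 at 2.67 ± 0.736, Pbx4 at 2.31 ± 1.26, Meis2 at 1.23 ± 0.773, Pknox2 at 0.968 ± 1.53 and Meis1 at 0.564 ± 0.114 CPM per kb (SD, n = 6). By these means over all samples Tgif1 was 88.5 times Meis1. Within groups the order differed in part: Pknox2 averaged 1.85 CPM per kb in CONTROL, above Pbx4 (1.83) and Meis2 (1.58), and 0.0848 CPM per kb in HOXA13, below Meis1 (0.601). In HOXA13 Pbx4 (2.78) also averaged above Pbx3 (2.34), and Pknox1 (8.85) above Meis3 (8.75). The ranges of Tgif1 and Pbx2 did not overlap with each other or with the genes below them. Meis3 and Pknox1 overlapped, and both stayed above the rest. From Pbx3 down, each gene overlapped with its neighbour in this order, while Pbx3, at 1.28 to 3.40 CPM per kb, was above Meis1, at 0.364 to 0.707 CPM per kb, in every sample. Per length, Meis3 within the MEIS class and Pknox1 within the PREP class were highest in every sample. In CPM alone Meis2 was above Meis3 in CONTROL replicate 3 (30.7 against 17.7). The order per length rests on merged exons of 11.9 kb for Meis2 and 1.82 kb for Meis3, which need not be the length of the transcripts present.

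**Figure D2:**
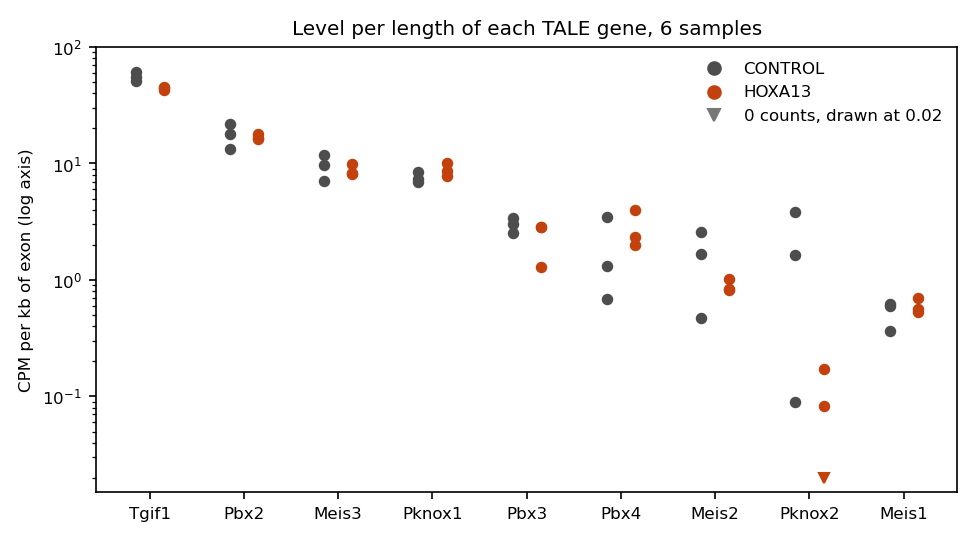
Level of each TALE gene per kilobase of exon (log axis), 1 point per sample, in order of the mean over 6 samples. Tgif1 and Pbx2 stand above the others in all 6 samples, and Pknox2 runs from 3.83 in CONTROL replicate 1 to 0 counts in HOXA13 replicate 1 (triangle).

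Summed per length over the 9 genes, Tgif1 made up 56.1% ± 4.39 of the total in CONTROL and 51.7% ± 1.80 in HOXA13 (SD, n = 3). The PBX genes made up 22.6% ± 0.764 and 25.8% ± 0.853. The MEIS genes made up 11.7% ± 2.62 and 12.0% ± 0.735, and the PREP genes 9.56% ± 1.74 and 10.5% ± 0.888. The PBX share was between 21.8% and 23.1% in CONTROL and between 24.9% and 26.6% in HOXA13, without overlap, while the summed level of the PBX genes was 22.5 ± 2.49 and 22.0 ± 0.914 CPM per kb, and that of Tgif1 was 55.7 ± 5.49 and 44.1 ± 1.43 CPM per kb. These shares are a description of the members and carry no test.

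Tgif1, the repressor that binds SMADs, was the only member whose groups did not overlap (1 of 8, or 12.5%, against 20.0% of all tested genes). Tgif1 (mm9, chromosome 17, 71193545 to 71202886, minus strand) was measured at 170, 185 and 207 CPM for CONTROL and at 149, 143 and 153 CPM for HOXA13. Every CONTROL value was above every HOXA13 value, and both groups were tight, with coefficients of variation of 9.86% and 3.25%. The log2 fold change was -0.34 (SE 0.15, 95% interval 0.627 to 0.998 as a fold), with an edgeR p-value of 0.0484 and an adjusted p-value of 0.351. This difference did not pass the correction, and its direction was the same in all 15 alternatives, where it ranged from -0.43 to -0.28 with adjusted p-values from 0.0668 to 0.694.

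The promoter windows of Tgif1 are shown because its product and the MEIS and PREP proteins recognise the letters TGACAG. RefSeq (GRCm38.p6, a later build than the mm9 coordinates used for the genes) lists 5 start sites for Tgif1, and windows of 300 bases, 250 before and 50 after each start, were searched on both strands. The third window holds TGACAG at 5 bases after its start, and the fifth also holds it, at 38 bases after. The fourth window holds the paired PBX-HOX letters, TGATTNAT, at 134 bases before its start. Capitals mark these matches in windows 3 and 4:
Tgif1 start site 3, chr17:70851161-70851460, minus strand: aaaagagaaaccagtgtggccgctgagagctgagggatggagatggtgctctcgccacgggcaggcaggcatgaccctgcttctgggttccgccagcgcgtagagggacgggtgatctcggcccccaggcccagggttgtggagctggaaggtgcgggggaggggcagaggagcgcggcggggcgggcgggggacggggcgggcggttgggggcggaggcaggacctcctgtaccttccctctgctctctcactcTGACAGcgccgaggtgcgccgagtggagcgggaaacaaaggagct
Tgif1 start site 4, chr17:70849741-70850040, minus strand: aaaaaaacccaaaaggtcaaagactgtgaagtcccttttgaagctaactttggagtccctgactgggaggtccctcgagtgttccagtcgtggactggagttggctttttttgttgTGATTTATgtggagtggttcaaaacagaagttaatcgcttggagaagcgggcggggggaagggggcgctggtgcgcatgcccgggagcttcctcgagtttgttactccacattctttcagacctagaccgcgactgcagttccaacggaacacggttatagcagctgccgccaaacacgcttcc

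Of 32851 promoter windows of this length, 19.2% hold the TALE letters on either strand and 3.22% hold the PBX-HOX letters. The counts are per gene, so they do not show which of these start sites was used.

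Meis2, a MEIS partner of PBX and Hox proteins, had the largest difference among the tested members in the main comparison. Pbx4 differed more than Meis2 without CONTROL replicate 2, in limma voom and with the replicate number as a block, and Pbx3 did without CONTROL replicate 3. Meis2 (mm9, chromosome 2, 115688800 to 115891575, minus strand) stood at 19.9, 5.60 and 30.7 CPM among the CONTROL samples and at 9.84, 9.72 and 11.9 CPM among the HOXA13 samples. CONTROL replicates 1 and 3 were above the HOXA13 samples and CONTROL replicate 2 was below them, so the groups overlapped. The CONTROL values spanned 5.48-fold and the HOXA13 values 1.23-fold. The log2 fold change was -0.83 (SE 0.54, 95% interval -2.08 to 0.41), and edgeR's adjusted p-value was 0.555. Without CONTROL replicate 2 it was -1.28 (SE 0.30) with an adjusted p-value of 0.0223, and without CONTROL replicate 3 it was -0.30 with an adjusted p-value of 0.934.

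Pknox2, the tissue-restricted PREP gene, had the widest range. The gene lies on the minus strand of chromosome 9 (mm9, 36698570 to 36954899). Its counts were 191, 4 and 77 among the CONTROL samples (13.5, 0.320 and 5.77 CPM) and 0, 5 and 10 among the HOXA13 samples (0, 0.293 and 0.606 CPM). It was high in CONTROL replicates 1 and 3, while CONTROL replicate 2 fell inside the HOXA13 range. The means were 6.55 ± 6.65 and 0.300 ± 0.303 CPM (SD, n = 3), a ratio of 0.0458. It was left out by the filter on low counts and so has no test in the main comparison. When all genes with a count were kept, the log2 fold change was -4.40 (SE 1.32), with an unadjusted p-value of 0.00635 and an adjusted p-value of 0.166 in edgeR, a setting that called 0.921% of genes. The adjusted p-value was 0.0111 in DESeq2 (log2 fold change -4.44) and 0.0123 in edgeR without CONTROL replicate 2 (-4.94), and without a HOXA13 replicate it was between 0.409 and 0.565. In DESeq2 and in the edgeR settings that left out a replicate, Pknox2 passed a filter on low counts through CONTROL replicates 1 and 3 alone. Every HOXA13 library was at or below 0.606 CPM, so these values are a description and the calls are no support for a difference.

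Pbx4, a PBX gene best known from the testis, was ordered the other way among the CONTROL samples, with replicate 2 the highest. Pbx4 (mm9, chromosome 8, 72356523 to 72397062, plus strand) gave 3.90, 10.3 and 2.02 CPM for CONTROL against 11.8, 6.91 and 5.88 CPM for HOXA13. CONTROL replicates 1 and 3 were below the HOXA13 range and CONTROL replicate 2 inside it. The log2 fold change was 0.60 (SE 0.63, 95% interval -0.86 to 2.06), and edgeR's adjusted p-value was 0.746. It was 1.45 without CONTROL replicate 2, with an adjusted p-value of 0.117, and 0.19 without CONTROL replicate 3, with an adjusted p-value of 0.967. Without HOXA13 replicate 1 it was 0.23, and in limma voom it was 1.22 with an adjusted p-value of 0.152.

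The promoter windows of Meis2 and Pbx4 are shown because both hold CAATAAA on the opposite strand, letters that posterior Hox proteins are known to bind. The match lies 213 bases before the start of Meis2 and 33 bases before that of Pbx4, in capitals here, where it reads TTTATTG (RefSeq, GRCm38.p6):
Meis2, chr2:116064570-116064869, minus strand: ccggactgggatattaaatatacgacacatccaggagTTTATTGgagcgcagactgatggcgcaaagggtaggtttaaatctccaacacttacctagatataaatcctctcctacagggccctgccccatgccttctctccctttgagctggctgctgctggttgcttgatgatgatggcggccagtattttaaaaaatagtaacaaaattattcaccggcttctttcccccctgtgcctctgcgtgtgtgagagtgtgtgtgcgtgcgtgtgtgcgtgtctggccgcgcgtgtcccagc
Pbx4, chr8:69832374-69832673, plus strand: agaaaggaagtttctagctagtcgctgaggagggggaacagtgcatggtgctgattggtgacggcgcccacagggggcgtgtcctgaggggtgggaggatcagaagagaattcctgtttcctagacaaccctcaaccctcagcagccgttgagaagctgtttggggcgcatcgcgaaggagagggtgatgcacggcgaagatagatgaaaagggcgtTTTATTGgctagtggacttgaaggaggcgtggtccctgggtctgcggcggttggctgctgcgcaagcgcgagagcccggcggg

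Of the 32851 windows, 4.6% hold these letters. RefSeq windows were matched for 6 of the 9 members. Those of Meis1, Meis3 and Pbx2 hold none of these runs of letters on either strand. None of the 10 windows holds CTCGTAAA, the other run of posterior Hox letters searched, which 0.131% of all windows hold. Pbx3, Pknox1 and Pknox2 were not among the entries. A match is a run of letters and was not tested as a binding site.

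For the other 5 members the groups overlapped and each 95% interval included 0. Meis1 (mm9, chromosome 11, 18780433 to 18918961, minus strand), a MEIS gene known from blood and limb development, ran at 2.70, 4.56 and 4.42 CPM for CONTROL and at 5.23, 4.16 and 3.94 CPM for HOXA13, with CONTROL replicate 1 the lowest of the 6 samples. Its log2 fold change was 0.19 (95% interval -0.96 to 1.34), and this was -0.04 without CONTROL replicate 1. Meis1 had 38 to 71 counts a library. Gm16140 and Gm16141 overlap Meis1 on the opposite strand, as AC166172.1 does Pknox1, C79798 does Pbx3 and n-R5s82 does Pknox2. The strand option of the counting is not given in the sources used here.

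Meis3 (chromosome 7, 16760729 to 16771853, plus strand), the MEIS gene known from hindbrain development, gave 21.6, 12.9 and 17.7 CPM for CONTROL against 17.9, 14.9 and 14.9 CPM for HOXA13, inside the CONTROL range. The log2 fold change was -0.13 (95% interval -0.78 to 0.52), and 0.03 without CONTROL replicate 1. Pknox1 (chromosome 17, 31701718 to 31744638, plus strand), the broadly expressed PREP gene, gave 31.2, 35.5 and 29.3 CPM for CONTROL against 42.7, 33.1 and 36.1 CPM for HOXA13. CONTROL replicate 2 was the only CONTROL sample inside the HOXA13 range, and the log2 fold change was 0.22 (95% interval -0.24 to 0.68). As a fold the Pknox1 interval runs from 0.844 to 1.61.

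Pbx2 (chromosome 17, 34728211 to 34734345, plus strand), the most abundant PBX member, gave 65.5, 48.8 and 78.9 CPM for CONTROL against 58.6, 60.3 and 65.2 CPM for HOXA13. The HOXA13 values lay within the CONTROL range, and the log2 fold change was -0.07 (95% interval -0.55 to 0.42), which became 0.09 without CONTROL replicate 3. Of the 75-base stretches of Pbx2 transcripts, 4.54% also occur in Gpsm3, a gene that overlaps it on the same strand, so a small part of its reads is uncertain. Pbx3 (chromosome 2, 34026977 to 34228660, minus strand), a PBX gene known from nervous system development, gave 21.8, 19.5 and 16.3 CPM for CONTROL against 18.4, 18.3 and 8.19 CPM for HOXA13. HOXA13 replicate 3 was below the other 5 samples, and the log2 fold change of -0.36 (95% interval -1.18 to 0.46) was -0.08 without that replicate. The edgeR adjusted p-values of Meis1, Meis3, Pknox1, Pbx2 and Pbx3 were between 0.701 and 0.928.

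**Figure D3:**
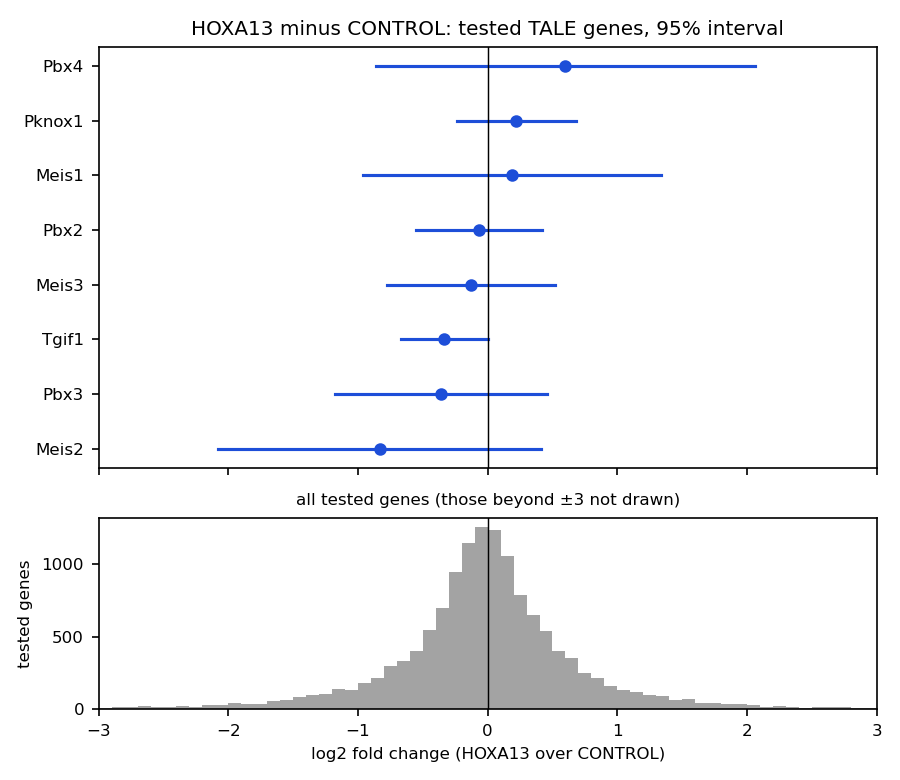
Upper panel, log2 fold change (HOXA13 over CONTROL) of the 8 tested TALE genes with 95% intervals from edgeR's quasi-likelihood fit, in order of size. Lower panel, the same difference for all 13600 tested genes (number of genes per bin of 0.1). The intervals of Meis2 (-2.08 to 0.41) and Pbx4 (-0.86 to 2.06) are the widest, and that of Tgif1 is the only one that lies below 0, by little.

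The CONTROL samples were the more spread group for most members. On the log2 CPM scale the SD among CONTROL samples was 1.26 for Meis2 and 1.14 for Pbx4, above that of 88.8% and 86.9% of tested genes. It was 0.14 for both Tgif1 and Pknox1, above that of 12.5% and 12.4% of genes. Of the 8 members 6 varied more in CONTROL than in HOXA13, as did 66.2% of all tested genes. CONTROL replicate 2 was the sample farthest from the other CONTROL samples for 5 of the 8 members (62.5%), namely Meis2, Meis3, Pknox1, Pbx2 and Pbx4, and for 54.4% of all tested genes.

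Markers of other cell types also differed between these samples. The 24 mesenchymal markers, which include Vim and collagen genes, summed to 15873, 4139 and 12834 CPM for CONTROL against 3242, 7076 and 7034 CPM for HOXA13. The sums were thus highest in CONTROL replicates 1 and 3, where Meis2 and Pknox2 were also highest. Most of the HOXA13 sums came from Fn1, at 1997, 4631 and 4976 CPM, against 3374, 2033 and 3728 CPM for CONTROL. Fn1 had a log2 fold change of 0.35 (SE 0.37). Of the tested mesenchymal markers 3 were higher and 20 lower in HOXA13. The median log2 fold change over 23 tested mesenchymal markers was -1.43, with 0 passing in edgeR (9 at an unadjusted p under 0.05, which 14.1% of all tested genes had) and none at 0 counts in every library. The 12 mesonephric markers, listed for the M15 feeder cells, summed to 96.2, 65.1 and 83.8 CPM for CONTROL against 35.7, 75.7 and 61.5 CPM for HOXA13. Most of this sum came from Gata3, at 22.7 to 61.0 CPM, while Nr2f2 was at 2.67 to 14.2 CPM and Tbx18 at 1.38 to 10.1 CPM. Among the kidney markers of the list, Wt1 was between 0 and 6.64 CPM, Pax2 between 0 and 0.879 CPM and Pax8 between 0 and 0.426 CPM. The 12 pluripotency markers summed to 126, 1571 and 225 CPM for CONTROL against 989, 542 and 548 CPM for HOXA13, so that CONTROL replicate 2 and HOXA13 replicate 1, which had the most Pbx4, also had the highest sums. The 18 epithelial markers summed to 2371, 8422 and 5887 CPM for CONTROL and to between 10647 and 12583 CPM for HOXA13, without overlap. All 18 epithelial markers were tested and had a log2 fold change above 0, with 0 passing in edgeR and 13 at an unadjusted p under 0.05, and 15 had groups that did not overlap (83.3%, against 20.0% of all tested genes). Over all marker lists 0 of 69 genes passed in edgeR. Without CONTROL replicate 2 edgeR called 34 of 70 (21 higher and 13 lower in HOXA13), where it called 14.2% of all genes, limma voom called 31 of 69, where it called 15.4%, and DESeq2 8 of 65, where it called 5.05%. In bulk RNA, fewer cells of a type and less RNA per cell cannot be told apart, and the part of these markers in the TALE levels was not tested.

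**Figure D4:**
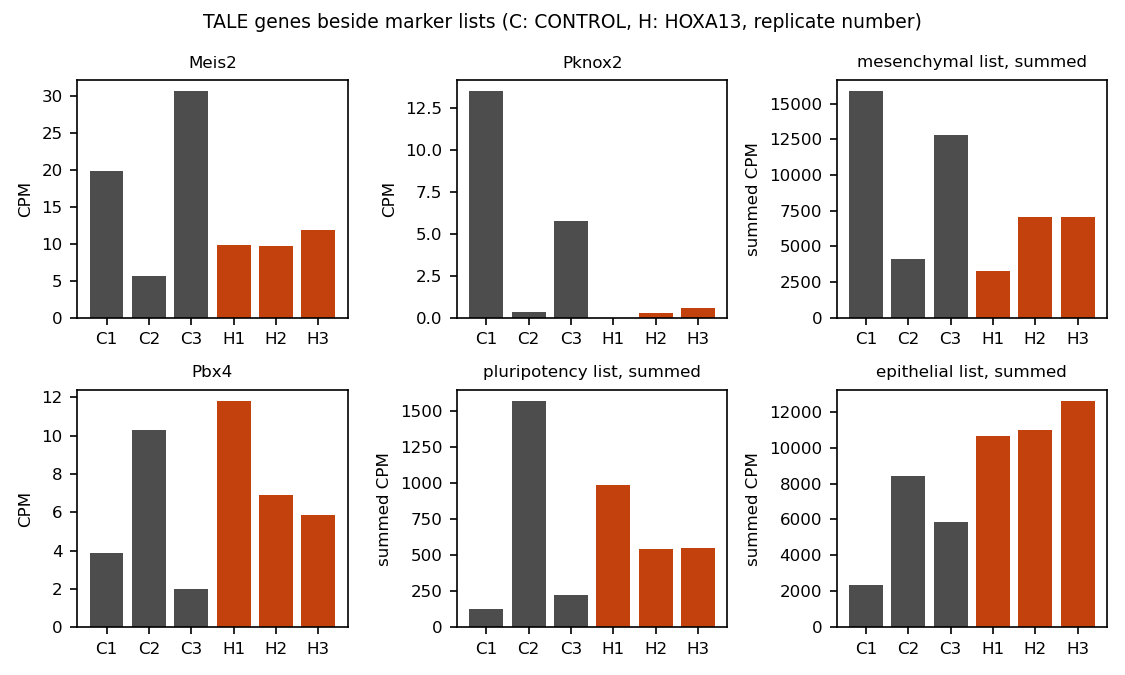
CPM of Meis2, Pknox2 and Pbx4 and summed CPM of the mesenchymal, pluripotency and epithelial marker lists (linear axes from 0) in CONTROL replicates 1 to 3 (C1 to C3) and HOXA13 replicates 1 to 3 (H1 to H3). Meis2, Pknox2 and the mesenchymal sum are highest in C1 and C3, and Pbx4 and the pluripotency sum are highest in C2 and H1.

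The proteins that TALE factors work with were examined next. Of the 38 mouse Hox genes other than Hoxa13, 33 were tested and 0 passed in edgeR (9 at an unadjusted p under 0.05, which 14.1% of all tested genes had), with 27 lower and a median log2 fold change of -0.99. Among those highest in CPM, Hoxb9 had a log2 fold change of -1.88 (SE 0.51) and Hoxd9 of -1.04 (SE 0.43). The summed CPM of the Hox genes was 416, 274 and 336 for CONTROL against 151, 174 and 137 for HOXA13, without overlap between the groups, and 11 of the 33 tested genes had groups that did not overlap (33.3%, against 20.0% of all tested genes). The PBX members beside them had a summed level per length that differed by less than its spread, as given above. DESeq2 called 6 of 35 Hox genes (5.05% of all genes), limma voom 6 of 33 (15.4% of all genes) and edgeR without CONTROL replicate 2 6 of 35 (14.2% of all genes), all lower in HOXA13. The last of these counts and that of limma voom are near the share over all genes. The counts of DESeq2 and of edgeR without CONTROL replicate 2 include Hoxc4 (140, 7 and 45 counts for CONTROL against 0, 10 and 1 for HOXA13) and Hoxc5 (97, 13 and 29 against 0, 1 and 4), which pass a filter on low counts only through CONTROL samples, where they are high, and are no support for a difference. In the main comparison Hoxc5 is also among the 9 genes at an unadjusted p under 0.05 and the 11 without overlap. There too it passed the filter only through CONTROL samples and is no support for a difference. The same holds for Hoxd1 (44, 110 and 91 counts for CONTROL against 8, 21 and 9 for HOXA13). Hoxd1 is among both of these sets and among the calls of DESeq2 and limma voom. It passed the main filter, which limma voom shares, only through CONTROL samples, where it is high. Hoxb9, Hoxd8 and Hoxd10 were called by DESeq2, by limma voom and by edgeR without CONTROL replicate 2.

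Of 13 partners and regulators of TALE proteins, 0 passed in edgeR. Only 1, Hdac2, had an unadjusted p under 0.05, which 14.1% of all tested genes had. Hdac2, a histone deacetylase found in the corepressor complexes that TGIF recruits, averaged 161 ± 28.3 CPM for CONTROL and 109 ± 9.82 CPM for HOXA13 (SD, n = 3). Its log2 fold change was -0.56 (SE 0.18), and edgeR's adjusted p-value was 0.219, and 0.0140 without CONTROL replicate 2 (-0.71). The other partners highest in CPM were Ep300, a coactivator, at a log2 fold change of 0.17 (95% interval -0.29 to 0.63), and Ctbp1, a corepressor that binds TGIF, at 0.07 (95% interval -0.27 to 0.41). The SMADs that TGIF binds had log2 fold changes of -0.06 for Smad2, -0.17 for Smad3 and -0.25 for Smad4. Pbxip1, which binds PBX and holds it off DNA, had 0.17 (95% interval -0.73 to 1.07). The median of the 13 was -0.06.

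Of 11 other TALE homeobox genes, which do not form the classical Hox complexes or were not among the members, 8 were tested. In edgeR 0 of the 8 passed and 2 had an unadjusted p under 0.05, which 14.1% of all tested genes had. The highest in CPM was Tgif2, which encodes the other TGIF repressor. Tgif2 gave 24.4, 30.3 and 22.3 CPM for CONTROL against 32.3, 39.5 and 33.0 CPM for HOXA13. Every HOXA13 value was above every CONTROL value, the opposite order to Tgif1. Its log2 fold change was 0.44 (95% interval -0.05 to 0.94), with an unadjusted p-value of 0.0730 and an adjusted p-value of 0.414 from edgeR, so it did not pass. Of the 8, 2 had groups that did not overlap, Tgif2 and Irx1 (25.0%, against 20.0% of all tested genes). The genes at an unadjusted p under 0.05 were Irx1 and Irx2, Iroquois genes that pattern many tissues. Irx1 averaged 17.0 ± 4.12 CPM for CONTROL and 6.16 ± 1.15 CPM for HOXA13 (SD, n = 3), without overlap. Its log2 fold change was -1.46 (SE 0.33), and edgeR gave it an adjusted p-value of 0.114. Irx1 was called, and lower in HOXA13, by DESeq2 (adjusted p 0.00608), limma voom (adjusted p 0.0100) and edgeR without CONTROL replicate 2 (adjusted p 0.0222). Irx2 had a log2 fold change of -1.11 (SE 0.40) with an adjusted p-value of 0.266 (0.0220 in limma voom), and Irx3 of 0.31 (SE 0.44).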

How the data were processed

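RNA was measured in 6 libraries, 3 CONTROL and 3 HOXA13, grouped by their titles. Each deposited file lists whole read counts by gene symbol, which the authors obtained from poly-A RNA with a stranded kit. According to the submitters' processing notes these were aligned to mm9 with TopHat2 2.0.14 and counted with HTSeq 0.6.1p1 (the methods of the study name another TopHat version). Which annotation and strand option were used, and how multiply aligned reads were handled, is not given in the sources used here, so paralogous and overlapping genes are uncertain. The members and gene lists were chosen with earlier results of these data known.

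The comparison used edgeR 4.0.16 under R 4.3.3. Genes were kept by filterByExpr at a minimum count of 10 and a minimum total of 15, leaving 13600, followed by TMM normalisation, glmQLFit and glmQLFTest with the group alone, and Benjamini-Hochberg adjustment over all tested genes at 0.05. Standard errors and 95% intervals were derived from the F statistic and p-value. Levels per length used merged exons of GENCODE M1, which is on mm9. The biological coefficient of variation was 41.5%. Replicates differed by more than sampling noise in every pair (chi-square over its degrees of freedom at least 15.8). The fit was tested on simulated data. Alternatives were DESeq2 1.42.0, limma 3.58.1 voom with sample quality weights, RLE and upper quartile scaling, no filter, a mean of at least 50 counts, the edgeR 4 method, a replicate block, an offset by chromosome and leaving out each replicate. Named genes were all members and, of each other list, those past the threshold or else the 3 highest in CPM, with those at an unadjusted p under 0.05, the SMADs and Pbxip1 added after their values were seen. 1 gene that this rule names is not reported here. Marker genes are named as examples.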

Additional observations from a re-analysis of the deposited data

How the results depend on the processing

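Of 126 member values under 15 alternative settings, 120 kept their direction and their side of the threshold. The exceptions were Meis2 without CONTROL replicate 2 (-1.28), Pknox2 with DESeq2 (-4.44) and without CONTROL replicate 2 (-4.94), which passed, and Meis1 and Meis3 without CONTROL replicate 1 and Pbx2 without CONTROL replicate 3, which changed sign. Without 1 replicate, log2 fold changes ran from -0.04 to 0.30 for Meis1, from -0.32 to 0.03 for Meis3 and from -0.25 to 0.09 for Pbx2. Under the settings that kept the filter on all samples, or left out CONTROL replicate 1 or 3, Pknox2 did not pass the filter and has no value. The number of TALE members past the threshold was 0, and 1 with DESeq2 and 0 to 2 without 1 replicate.

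Over all genes 42 passed, and 722 with DESeq2, 2101 with limma voom, 106 with the edgeR 4 method, 9 when a mean of 50 counts was required, 163 with no filter, 1 with the chromosome offset and 0 to 2006 without 1 replicate, the highest without CONTROL replicate 2. Of the other TALE genes 1 passed with DESeq2, 2 with limma voom and 0 to 1 without 1 replicate. Of the Hox genes 6 passed with DESeq2, 6 with limma voom, 1 with each of the edgeR 4 method, no filter and upper quartile scaling, and 0 to 6 without 1 replicate. Of the partners 1 passed with limma voom and 0 to 1 without 1 replicate, and of the markers 8 with DESeq2, 31 with limma voom, 2 with no filter and 0 to 34 without 1 replicate. For each of these, the cause was not tested.

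With the replicate number as a block, 0 of 13600 genes passed (1392 at an unadjusted p under 0.05) and 0 of 8 members. The correlation across genes of deviations from the group means averaged -0.128 between samples of 1 number and 0.0724 between the others. Such deviations balance out within each group and the pairs are few. These averages therefore cannot show whether samples of 1 number share more than the number. The lowest counts were those of Pknox2 (0 to 191 a library), Pbx4 (27 to 154) and Meis1 (38 to 71), and the parts of depth and of spread between replicates in their errors were not separated.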

Other observations

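The genes whose profile over the 6 samples was nearest to that of a member were looked up as a description, by the root mean square distance between log2 CPM values centred on their mean, among genes that averaged 5 CPM or more. Nearest to Tgif1 were Rala, a small GTPase, at a distance of 0.032, Acad8 at 0.045 and Nae1 at 0.051. Nearest to Meis2 were Kcnab3, Vcan, which encodes the matrix proteoglycan versican, and Pqlc3, at 0.20 to 0.21. Nearest to Pbx4 were Troap, which encodes a protein of the mitotic spindle, at 0.10, Insig1 at 0.14 and Myl6b at 0.18. Nearest to Pknox1 were Polr2b at 0.034, Ctnnb1, which encodes β-catenin, at 0.041 and Ppp2r1a at 0.055. With 10724 genes searched over 6 samples, near profiles are found for any gene, and no shared control is read from them.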
